A study of Vitis vinifera with 12 samples.

Results

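The miR169 family was measured with 40 probes of a custom oligonucleotide array for grapevine (Vitis vinifera cv Corvina) microRNAs (miRNAs). The probes were chosen by sequence alone. The reverse complement of each shares at least 18 consecutive bases with a predicted mature miR169 of grapevine, and each has its own mismatch probe with 2 changed bases as a control. They hold 25 distinct sequences, of 1947 perfect match miRNA probes with 1579 distinct sequences in all. Low molecular weight RNA, labelled with Cy5, was hybridized from 6 tissues with 2 arrays each, every array with an extraction of its own. The tissues were roots of plants cultured in vitro, young inflorescences collected 3 weeks ahead of flowering, leaves collected before flowering, and seedless berry tissue in 3 stages. These stages were green berries at 5 weeks from flowering, berries at veraison (the onset of ripening) at 9 weeks and mature berries at 15 weeks. Roots, leaves and berries were pools according to the labels, and all tissues but the roots came from the field, so that organ and growth condition cannot be told apart for the roots. Nothing states that the 2 extractions came from different plants, so the spread between the 2 arrays of a tissue may be technical. The p-values below rest on that spread. In limma's tests it was pooled over the 6 tissues and moderated over all sequences, so it is not that of the compared arrays alone.

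miR169 is among the older plant miRNA families and has many nearly identical copies in flowering plants. It pairs with the mRNAs of NF-YA transcription factors, the subunit through which the NF-Y complex recognizes CCAAT boxes, and directs their cleavage. In Arabidopsis the family is known for its part in the response to drought, and in petunia and snapdragon for keeping floral organ identity genes to the inner whorls of the flower. The mRNA targets were not on the array.

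The sequences below are the RNA matched by a probe (the reverse complement of the probe, in DNA letters, 5′ to 3′). One form is shown for every class of the family, since the results turn on how they differ. Capitals mark each base that differs from miR169a or has no counterpart in it.

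miR169a: cagccaaggatgacttgccgg

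miR169f: cagccaaggatgacttgccgA

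miR169e: TagccaaggatgacttgccTg

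miR169x: TagccaaggatgacttgccTA

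miR169l: GagccaaggatgacttgccgT

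miR169m: Gagccaaggatgacttgccgg

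miR169o: GagccaaggatgacttgccgC

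miR169r: TGagTcaaggatgacttgccg

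miR169r C-form: CGagTcaaggatgacttgccg

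miR169b: TGagccaaggatgGcttgccg

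miR169v: AagccaaggatgaAttgccgg

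miR169y: TagcGaaggatgacttgccTA

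miR169i: GagccaaggatgactGgccgT

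miR169d: cagccaagAatgaTttgccgg

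The first 7 of these, with 4 shorter forms of 19 or 20 bases, have the stretch agccaaggatgacttgcc of 18 bases in common and differ only at their ends. These 11 sequences on 24 probes are called core sequences here. The other 14 sequences, on 16 probes, each have at least 1 changed base inside the stretch. With positions counted from 1 at the 5′ end of miR169a, the change is C4T in miR169r and its 3 other forms, A13G in miR169b, C14A in miR169v, C5G in miR169y, T16G in miR169i, and G9A with C14T in miR169d. These last 5 types have 2 forms each. The miR169r C-form and its shorter version were named here for their first base. miR169m was named for the 20 bases it shares with the mature sequences of MIR169M and MIR169N. Of the other 20-base forms, 5 were on the array more than once. The 20-base form that miR169a and miR169f share had 8 copies, that of miR169l, miR169m and miR169o had 6, and those of miR169e with miR169x, of miR169r and of miR169b had 2 each. Sequences this close can bind RNA of each other's genes, so the probes are not independent measurements.

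All 25 MIR169 genes of grapevine were found in the RefSeq annotation (assembly ASM3070453v1). On 1 chromosome lay 18 of them, with 14 of their 17 neighbouring pairs directly adjacent and 5 other genes in between in all, and the remaining 7 lay on 5 other chromosomes. Several genes share 1 mature sequence. The sequence of miR169a is that of 6 genes, that of miR169r of 3, and those of miR169b and miR169f of 2 each.

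The deposited values are fluorescence intensities in scanner units, the median of 3 replicate spots, before normalization. Between replicate spots the SD was 13.1% of the median for the core probes and 18.2% for the others (medians over 288 and 192 values). The 8 copies of the 20-base form of miR169a and miR169f differed by a coefficient of variation of 6.62% to 32% within an array (median 14.9%), and the 6 copies of that of miR169l, miR169m and miR169o by 2.81% to 18.1% (median 8.79%). The median miRNA probe of an array lay between 3.5 and 232. The background level of the study's methods, the mean plus 2 SD of 14 negative and degradation controls, lay between 665.9 and 4353, and it differed between the 2 arrays of a tissue (1071 and 4353 in inflorescences). The ubiquitin control alone read 931.8 to 6938.

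A sequence was counted as present in a tissue where both arrays exceeded the background level and the ratio of perfect match over mismatch was above 1.2. The demand for both arrays was set here. The study called probes by their median signal, and its list differs, with miR169a given as expressed in leaves, inflorescences and every berry stage. Only miR169f and miR169l, 2 of the 25 sequences, were present anywhere, both at veraison, against 5.64% of all sequences present in at least 1 tissue. miR169f read 1382 and 2229 at veraison, where the background levels were 914.1 and 1999, and its ratio over mismatch was 14.9 and 36.5. miR169l read 934 and 2062.5 on the same arrays, with ratios of 8.02 and 19.1, so that it cleared the background level by a narrow margin. Without the ubiquitin control, the level was 283.1 to 949.5 and 18 sequences were present. There were 14 in inflorescences, 15 at veraison, 16 in mature berries and 0 in roots, leaves or green berries. How many of all sequences were present at this lower level was not counted, so these counts have no share to be set against. In roots no sequence of the family exceeded either level on any array.

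All 11 core sequences were brighter than their mismatch probes by more than 1.2-fold on 12 of 12 arrays, roots included. In roots, where all were under background, the 19-base form passed narrowly (1.218 and 1.219). On the second root array the mismatch probes of miR169a, miR169f, miR169e, miR169x and miR169m read 1, which makes their ratios large. The median ratio of the core sequences was 7.74 to 24.7 for the 7 of 21 bases, whose mismatch probes carry C5G and G17T. It was 3.84 to 5.7 for the 4 sequences of 19 or 20 bases, whose mismatch probes carry C5G and A13G. Probe length and position of the changed bases cannot be told apart in this difference. In the other classes the median ratio was 3.15 to 5.48 for miR169v, 2.5 to 6.55 for miR169y, 2.22 to 2.29 for miR169d, 1.45 to 2.72 for miR169r, 1.19 to 1.62 for miR169b and 1.13 to 1.21 for miR169i. Here the 2 changed bases do not always lead away from the family. In the mismatch probes of both miR169b forms, G14A (counted from the first base of miR169b) puts back the base of the core, and in that of the 20-base form of miR169i, G16T does the same. These 3 mismatch probes match the core stretch at all but 1 base, as their perfect match probes do. In inflorescences miR169b read 534 and 1271 and its mismatch probe 730 and 1249.5. The 20-base form of miR169i read 758 and 708.5 there, and its mismatch probe 792 and 1122, so that neither perfect match was brighter on both arrays. For miR169i of 21 bases the mismatch probe was listed at 0 on 1 array each of veraison and mature berries, so no ratio can be read there. Its median of 1.13 still counts these arrays with the mismatch set to 1 (ratios of 246.5 and 288), which raises it.

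The comparison of organs asked where the family was most abundant outside the fruit. All 11 core sequences had their lowest signal in roots, an intermediate one in leaves and their highest in inflorescences, and inflorescences were also above every berry stage. Their intensities were 32 to 169 in roots, 2394 to 4436 in inflorescences and 174 to 1279 in leaves. In leaves the first array read a median of 3.9 times the second. After quantile normalization the 2 leaf arrays differed by an SD of 0.83 to 1.54 on the log2 scale, those of inflorescences by 0.03 to 0.7 and those of roots by 0.01 to 0.2 (n = 2 each).

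In limma's moderated F test over the 3 organs, 10 of the 25 sequences passed an adjusted p of 0.05 (Benjamini-Hochberg over all sequences), against 3.04% of all 1579. All 10 were core sequences, 0 of the 14 others passed, and miR169o was the core sequence that did not (adjusted p = 0.0646). At an unadjusted p under 0.05 there were 16, against 8.49% of all sequences. Of the 141 sequences that share 18 bases with any mature miRNA of the study, 17 passed, these 10 among them. By Scheffé's limits, all 10 were lower in roots than in inflorescences, against 1.08% of all sequences called in this direction. The log2 difference in measured signal over the 11 core sequences was -4.53 to -3.47 (median -3.96, standard errors 0.7 to 0.78), where the median over all sequences was -0.04. Since no root array was above background, a fold can be given only as a bound. Set at the lowest signal above background, roots were at least 1.26-fold to at least 2.87-fold lower than inflorescences for the 10 sequences, of which 1 of 2 inflorescence arrays was above background. The bounds here and below average the measured signal of both inflorescence arrays, so they hold only as far as the array under background can be read.

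miR169m had the largest log2 difference in measured signal, though its bound was second to that of miR169f. It read 126 and 92 in roots, 4436 and 3895 in inflorescences and 1002 and 259.75 in leaves. All 3 organs were clear of each other, with roots lowest. Its log2 means were 7.42 ± 0.08 in roots and 11.95 ± 0.35 in inflorescences (SD, n = 2 each), a difference of -4.53 with a standard error of 0.78 (limma adjusted p = 0.0218, at least 2.77-fold lower in roots).

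miR169f, which differs from miR169a in its last base (G21A), read 140 and 102 in roots, 4271 and 4092 in inflorescences and 1279 and 291.5 in leaves. The organs were again in the same order without overlap, with a log2 difference of roots from inflorescences of -4.44 in measured signal (standard error 0.78, limma adjusted p = 0.0236, at least 2.87-fold lower in roots).

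miR169l read 107 and 66 in roots, 3670 and 3485 in inflorescences and 1074 and 260.5 in leaves, a log2 difference of roots from inflorescences of -4.22 in measured signal (standard error 0.77, limma adjusted p = 0.0319, at least 1.92-fold lower in roots). miR169a, the form with most genes, differed by -4.20 (standard error 0.71, limma adjusted p = 0.0199, at least 2.22-fold lower in roots).

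Leaves lay between the other organs with less certainty. Inflorescences were higher than leaves by 1.85 to 2.64 on the log2 scale in the 11 core sequences, and 4 of them passed (miR169a, miR169f, miR169m and the 19-base form), against 0.76% of all sequences. Of these, miR169a had no leaf array above background, and its inflorescence signal was at least 1.44-fold higher than that of leaves, with 1 of 2 inflorescence arrays above background. The measured signal of roots differed from that of leaves by log2 differences of -2.25 to -1.41, and 2 of the 11 passed (miR169x and miR169l), against 0.253% of all sequences. No fold can be given for this pair, since miR169x was above background on no array of either organ and miR169l on 1 of 2 leaf arrays, and the bound was under 1 in every core sequence.

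The organ calls rest on few arrays. Leaving out either root array or either inflorescence array left 0 of the 10 calls, and leaving out either veraison array left 3, although the median difference of the core sequences between roots and inflorescences stayed between -4.12 and -3.71 in each of these fits. In the table that the authors had quantile-normalized over all probes, 1 core sequence was called, with differences of -4.27 to -3.4.

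The 14 sequences with a change inside the stretch showed smaller differences between roots and inflorescences, and none passed. They were -2.3 to -1.15 for the 4 miR169r forms, -2.09 and -1.62 for miR169y, -1.77 and -0.995 for miR169v, -2.36 and -0.53 for miR169b, -0.77 and -0.88 for miR169i, and -0.11 and -0.80 for miR169d, the value of the longer form given first. After normalization both root arrays were below both inflorescence arrays in 23 of the 25 sequences, against 16.5% of all sequences. The exceptions were the 20-base form of miR169b and miR169i, in which the roots were below the inflorescences without overlap before normalization. The 20-base form of miR169b also had the smallest measured difference of any organ pair. It read 127.5 and 49.75 in roots, 375 and 204.5 in inflorescences and 195 and 85.75 in leaves. After normalization the inflorescence and leaf arrays overlapped (log2 difference -0.03, standard error 0.67). miR169v read 216 and 244 in roots, 1004.5 and 2231.5 in inflorescences and 159.5 and 176 in leaves. Its root arrays were above its leaf arrays, a log2 difference of 0.24 with a standard error of 0.68 that did not pass (limma adjusted p over the organs = 0.372). miR169d, with 2 changed bases, read 66 and 22 in roots, 264 and 78.25 in inflorescences and 45.5 and 18 in leaves. It was dim in every organ, and after normalization its roots and inflorescences differed by -0.11 (standard error 0.58).

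Perfect match and mismatch probes were also grouped by the number of core bases that they do not match. Without normalization, the mean of the root arrays minus that of the inflorescence arrays was -4061 to -2355 (median -3491) scanner units in the 11 probes that match all 18 bases. It was -1388 to -201 (median -672) in the 15 probe sequences with 1 unmatched base, 12 of them perfect match and 3 mismatch probes. In the 24 with 2 or more it was -438 to -16.4 (median -116). The first group did not overlap the second, and the second overlapped the third only through the mismatch probes of the miR169r C-form and miR169i, in which inflorescences exceeded roots by 438.25 and 210.5 units. On the log2 scale, with intensities under 50 set to 50, the medians were -4.92, -2.90 and -1.11, and 13 of the 24 in the last group had both root arrays at this limit, which makes their differences smaller. A difference in scanner units follows the brightness of a probe, and mismatched probes are dimmer by design, so these values describe the probes and do not compare amounts of RNA. These are values of overlapping sequences on the same 4 arrays, and no test was made on them. Which RNA each probe bound was not tested.

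The forms were then set against each other over all 6 tissues. For each sequence the log2 difference from the 8-copy form was taken on the same array, which cancels what an array does to both, and tested over the tissues with limma's moderated F test. Of the 24 other sequences, 8 differed, against 87.6% of all sequences, and all 8 were among the 14 with changed inner bases. Of the 10 other core sequences 0 differed, also at an unadjusted p under 0.05 (limma adjusted p of 0.867 or above). The difference between roots and inflorescences in a core sequence was within -0.63 to 0.42 of that in the 8-copy form, but the 95% intervals reached from -2.15 to 1.94. The test moderates the spread of each sequence towards that of all sequences, with standard errors of 0.71 to 0.73 in the core. By this test, differences of up to the size of the intervals cannot be told from none, and it does not show that the core forms are alike. Between the 2 arrays of a tissue, the SD of the core sequences' differences from the 8-copy form had a median of only 0.1. That of their signals had a median of 0.08 in roots and 0.1 at veraison, and of 0.35 to 1.19 in the other 4 tissues. Over the 12 arrays, Pearson's r with the 8-copy form was 0.979 to 0.998 (median 0.993) in the core sequences and 0.287 to 0.93 (median 0.69) in the others, a description over arrays that share their tissues and their scaling. miR169d (limma adjusted p = 0.008), the 20-base forms of miR169b (0.0132) and miR169v (0.0176) and both forms of miR169i (0.0189 and 0.0202) were among the 8. All 8 were above background on no array, so that a difference of the RNA from that of the core sequences and a signal too low to follow it cannot be told apart. The count of 8 became 0 and 1 without the first and the second root array, 4 and 2 without the first and the second inflorescence array, and 0 with scaling to the 75th percentile, while that of the core sequences was 0 in these and the other settings tried for this test.

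The comparison of berry stages asked whether the family changed with ripening. No sequence passed (0 of 25 in limma's moderated F test, against 0% of all 1579), and 3 had an unadjusted p under 0.05, miR169b, its 20-base form and miR169o, where 6.9% of all sequences did. The methods' one-way test, run here on each sequence alone, gave 1 unadjusted (83 of all 1579) and 0 adjusted (0 of all). The study's own test differed, since it treated closely related miRNAs as replicates. It also left out probes with a low ratio of perfect match over mismatch. By that test the study gave miR169a, miR169f, miR169r and miR169x as higher in mature than in green berries. Although no sequence passed here, the measured values of the core sequences were ordered alike. Their intensities were 284 to 1126.5 in green berries, 580 to 2229 at veraison and 685 to 1479 in mature berries. In all 11, both mature arrays were above both green arrays after normalization, and so they were in 17 of the 25 sequences, which adds the 4 miR169r and both miR169b forms, against 20.5% of all sequences. The log2 difference of mature from green berries was 1.41 to 2.13 (median 1.61) in the core sequences, that of veraison from green berries 1.02 to 1.58 (median 1.2), and that of mature from veraison berries 0.24 to 0.71 (median 0.39). Without normalization this last difference was -0.38 to 0.12 (median -0.22), below 0 in 10 of the 11. The 2 green arrays differed by an SD of 0.8 to 1.22 in these sequences, against 0.00 to 0.45 at veraison.

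The difference of mature from green berries depended on the scaling too. Without normalization the core sequences had a median difference of 0.82 between mature and green berries, the same as the median over all 1579 sequences (0.82). With scaling to the 75th percentile they differed by 0.6, less than the median of all sequences (0.69), and with scaling on the positive controls by 0.82, against 0.81 for all. Between roots and inflorescences the median of the core stayed far from that of all sequences in each scaling, at -4.92 against -0.97 without normalization.

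miR169o had the largest difference between berry stages. It read 349 and 779 in green berries, 863 and 1831.2 at veraison and 1120 and 1291.2 in mature berries. Green berries lay below the other stages without overlap, while the intensities of veraison and mature berries overlapped. Its log2 mean was 10.99 ± 0.37 in mature and 8.86 ± 1.14 in green berries (SD, n = 2 each), a difference of 2.13 with a standard error of 0.76 (limma adjusted p = 0.694).

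miR169f read 629.5 and 1126.5 in green berries, 1382 and 2229 at veraison and 1402 and 1479 in mature berries. miR169l read 391.5 and 789.5, 934 and 2062.5, and 1286.5 and 1159.5 at these stages. Both had the veraison and mature berries above the green ones, with log2 differences of mature from green berries of 1.58 and 1.97 (standard errors 0.78 and 0.77).

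miR169b was the sequence nearest to the threshold. It read 324 and 235 in green berries, 406.5 and 650 at veraison and 747 and 839.5 in mature berries. The stages did not overlap, and the normalized log2 means were 8.14, 8.99 and 10.19 in this order. The log2 difference of mature from green berries was 2.05 with a standard error of 0.56 (limma adjusted p = 0.426). Its 20-base form read 156 and 166.75 in green, 373.25 and 452 in veraison and 620.75 and 520.75 in mature berries, again without overlap in intensity, and differed by 2.12 (standard error 0.67, limma adjusted p = 0.585). After normalization 11 of 11 core sequences had their highest mean in inflorescences, as did 5 of the 14 others. In both miR169b forms and the 20-base form of miR169r it was in mature berries. In the other 3 miR169r forms it was at veraison. In the deposited intensities miR169b was highest in inflorescences too, by a log2 mean of 9.69 against 9.63 in mature berries. Of the miR169b forms, only that of 20 bases was highest in mature berries there. The mismatch probe of miR169b read 343 and 213.5 in green, 346.5 and 696.25 in veraison and 318 and 513 in mature berries, so that the ratio of perfect match over mismatch was 2.35 and 1.64 in mature berries and 0.945 and 1.1 in green berries.

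No sequence of the remaining classes passed. The 4 miR169r forms had both mature arrays and both veraison arrays above both green arrays after normalization. They differed by 0.9 to 1.64 between veraison and green berries, by 0.76 to 1.5 between mature and green berries, and by -0.22 to 0.12 between mature and veraison berries. The C-form of miR169r read 403 and 699 in green berries, 898.5 and 2211.2 at veraison and 703 and 1097.5 in mature berries, and its highest mean after normalization was at veraison. miR169v read 688 and 234.5 in green berries, 271.5 and 695 at veraison and 252 and 747.5 in mature berries. The 2 arrays of each stage were further apart than the stages, and its difference between veraison and green berries was the smallest of all (log2 difference 0.00, standard error 0.68). The forms of miR169d, miR169v, miR169y and miR169i differed between mature and green berries by -0.23 to 0.46, and several of these differences changed sign with the scaling.

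Over all 6 tissues together, limma's moderated F test called 0 of the 25 sequences, against 1.46% of all sequences, with 15 at an unadjusted p under 0.05 (12% of all). The lowest adjusted p was 0.0676, shared by 6 sequences (miR169a, miR169f, miR169x, miR169l, miR169m and miR169b). The methods' one-way test, extended here to the 6 tissues, gave 15 unadjusted (189 of all 1579) and 0 adjusted (15 of all).

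Probes moved along the precursor had smaller median differences between roots and inflorescences than the core sequences. Of the distinct sequences shifted by 5 bases towards the 5′ end (17), 5 bases towards the 3′ end (21), 10 bases towards the 5′ end (22) and 10 bases towards the 3′ end (22), and of 15 probes for the opposite strand, 1 in all passed the test over the organs, among those shifted by 5 bases towards the 3′ end. The median log2 difference of roots from inflorescences was -0.94, -0.56, -0.47 and -0.14 for the 4 shifts and 0.2 for the opposite strand, against -3.96 for the core sequences.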

How the data were processed

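The authors labelled low molecular weight RNA of each tissue with Cy5, hybridized 1 sample to each CombiMatrix array and deposited 2 linear, un-normalized intensity values per probe (median and SD over 3 replicate spots), together with a table of intensities quantile-normalized over all probes. Slides were stripped and used again per the study's methods. The sources used here name neither the hybridizations that shared a slide nor any subtraction of local background, so slides were not fitted as a batch. Several probes moved along the precursor or for the opposite strand had no intensity on replicate 2 of inflorescences, veraison and mature berries. Every other array listed an intensity for them. Whether these arrays with missing intensities shared a slide was not tested.

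A probe belonged to the family where its reverse complement shared an exact run of 18 or more bases with a miR169 of the paper's list of mature miRNAs. Numbered probes that were positive controls (5) were left out. The members, lists and tests were chosen with earlier results of these data known. Copies of a sequence were averaged. Medians were quantile-normalized over the 1947 perfect match miRNA probes, put on the log2 scale and fitted to the 6 tissues with limma 3.58.1 (lmFit and eBayes with an intensity trend) in R 4.3.3. Moderated F tests were run over the 6 tissues, the 3 organs and the 3 berry stages, adjusted by the Benjamini-Hochberg method over 1579 distinct sequences, with a threshold of 0.05. Pairs were read by Scheffé's limits where the F test passed. The fit was tested on simulated data. Every member is named. Values of each array are given for those present in at least 1 tissue, for those with the largest and smallest pair differences, and for miR169b, miR169d and the C-form of miR169r, which were chosen after their values were seen. For fold bounds, the dimmer tissue's value on an array was its measured signal or, if that was less, the lowest signal above background there. The test against the 8-copy form and the count of unmatched core bases were added after the data were examined. That test was fitted without the intensity trend.

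Alternatives covered scaling, the deposited normalized table, filters on the sequences, mismatch subtraction, array weights, a replicate block, each array left out, copies kept apart, the methods' one-way test and the background rule. Scaled intensities under 50 were set to 50. The number of arrays limits the precision. Replicate numbers were checked for pairing over the 15 pairs of tissues. The correlations of their deviations were -0.43 to 0.64, with 6 above 0.1, so the numbers were not taken to pair the arrays of all tissues.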

Additional observations from a re-analysis of the deposited data

Results flagged for a closer look

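Probes moved along the miR169 precursors by 5 or 10 bases still cover part of the mature sequence. Of these, 4 were above background and above their mismatch probes on both arrays of a tissue. The comparisons of the mature sequences above do not use their signal. Of 25 probes shifted by 10 bases towards the 3′ end, 1 was present in all 6 tissues, with a mean intensity of 6772 in roots, 12623 in inflorescences and 10083 in leaves. Its arrays read 7024 and 6521 in roots and 4917 and 5848 at veraison. They were far apart in inflorescences (2046.5 and 23199), leaves (3146 and 17020) and green berries (13510 and 1635). Of 25 probes shifted by 5 bases towards the 5′ end, 3 were present in roots and in green berries, with means of 1620, 1794 and 1872 in roots. No mature miR169 sequence was above background in roots. What these probes bound was not tested.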

How the results depend on the processing

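Numbers after a count, in brackets, are the calls over all sequences, of 1579 unless stated. Calls among the organs were 10 (48). They came to 16 (111) with scaling on the positive controls and 17 (135) without normalization. With only the 6 arrays of the comparison they came to 5 (30). In the authors' normalized table there was 1 (36), and with the methods' one-way test after adjustment 0 (0). Among sequences present in at least 1 organ there was no member to test (0). Without each array in turn the count was 0 to 11, and without replicate 2 of inflorescences and of leaves together, chosen after seeing the data, it was 3. Over the 6 tissues the main fit called 0 (23). There were 5 (105) with scaling to the 75th percentile, 12 (128) on the positive controls and 14 (141) without normalization. With mismatch subtracted there was 1 (29), without the intensity trend 2 (36) and with array weights 6 (56). Among present sequences 2 of 2 passed (22 of 89), and among sequences of mature miRNAs 13 (44 of 141). With copies kept apart there were 6 (68 of 1947), and with the methods' one-way test unadjusted 15 (189). Among the sequences above the median in mean brightness, chosen after seeing the data, there were 6 (42 of 789). Among berry stages the main fit called 0 (0), and the methods' one-way test gave 1 (83) unadjusted. Without an array its tissue has 1 sample, which is assumed to vary like the other tissues. With the replicate number as a block, the counts were 0 (23) over the tissues, 9 (48) among the organs and 0 (0) among the berry stages. In the comparison with the 8-copy form the block gave 6 (1442 of 1578). Present sequences (2) came to 0 at the mean plus 3 SD, 18 without the ubiquitin control, 14 where 1 of the 2 arrays sufficed and 2 to 13 without each array in turn (13 without replicate 2 of inflorescences or of mature berries, 7 without replicate 2 of leaves or replicate 1 of green berries, 5 without replicate 2 of veraison berries). For these present calls the share over all sequences was not counted. Sequences that differed from the 8-copy form were 8 (1383 of 1578). They came to 0 (432) with scaling to the 75th percentile, 3 (1368) on the positive controls, 2 (1335) without normalization and 5 (1197) in the authors' table.

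Core sequences kept their direction in every alternative, from -5.63 to -3.17 between roots and inflorescences and from 0.49 to 2.93 between mature and green berries. Directions turned only among the 14 others, for roots against inflorescences with mismatch subtracted in the 20-base forms of miR169b (0.26) and miR169i (1.49). For mature against green berries, scaling to the 75th percentile turned the short C-form of miR169r (-0.041), miR169v (-0.11), miR169d (0.22) and its 20-base form (0.66), and miR169i (-0.21) and its 20-base form (-0.14). Scaling on the positive controls turned miR169d (0.44) and its 20-base form (0.88), as did no normalization (0.44 and 0.88). Mismatch subtraction turned miR169v (-1.78) and the 20-base forms of miR169y (-0.61) and miR169i (-0.37). Without each array in turn, the difference of mature from green berries ranged from -0.84 to 0.90 in miR169v, -0.55 to 0.099 in its 20-base form, -0.91 to 0.86 in miR169d, -0.77 to 0.73 in its 20-base form, -0.16 to 1.07 in miR169y, -0.44 to 0.70 in its 20-base form, -0.38 to 0.88 in miR169i and -0.14 to 0.59 in its 20-base form. The cause was not tested. With 2 arrays a tissue and most signals under the background level, small differences between tissues cannot be told from none.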
